A study of Mus musculus with 2 samples.

Results

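The RNA of 8 mitochondrial genes, of 31054 genes counted, was described in single stromal and mesothelial cells of aged mouse gonadal fat. The genes were Chchd10, Chchd2, Ppargc1a, Nrf1, Esrra, Tfam, Opa1 and Mfn2. They were chosen by name, with measured levels from these libraries already known, so what follows is a description of their levels and holds no test. The cells came from 18-month-old male mice of the genotype p16-CreERT2/R26-LSL-tdTomato that had received tamoxifen, in which a Cre recombinase driven by the p16 gene switches on the red reporter tdTomato for good. Cells negative for CD31 (endothelial) and CD45 (immune) were sorted as Tom+ or Tom-, and 1 library was made of each, so the libraries shared age, sex, genotype and treatment and differed by the reporter sort. A Tom+ cell had an active p16 promoter when tamoxifen was given, which is not the same as p16 RNA at the time of sorting, and the number of mice behind each library was not given in the sources used here. With 1 library per condition, a difference between the sorts cannot be told apart from a difference between the preparations, and all intervals are 95% intervals of counting error only.

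Mitochondria are built from proteins of the nuclear genome and a few of their own. PGC-1α, the product of Ppargc1a, is a coactivator that turns on mitochondrial genes together with DNA-binding factors such as NRF1 and the estrogen-related receptor ERRα (Esrra). TFAM packages mitochondrial DNA and takes part in its transcription, OPA1 fuses the inner membrane and MFN2 the outer one. CHCHD10 and CHCHD2 are paralogous small proteins of the space between these membranes, and in adipose tissue PGC-1α is best known for its part in brown and beige fat.

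Cells with 1001 to 6999 genes and under 8% mitochondrial UMIs (unique molecular identifiers, one per captured RNA molecule) were kept, which left 3524 of 5566 Tom+ and 6717 of 11838 Tom- barcodes. A cell with at least 10 UMIs of Msln, Upk3b, Krt19, Lrrn4 and Upk1b together was called mesothelial, and one with under 5 was called stromal. The Tom+ library held 3263 stromal and 250 mesothelial cells, and the Tom- library 4800 and 1887, while 11 and 30 cells between the limits were left out. UMIs were summed per library and class and scaled to counts per 1000000 (CPM), over 51104409 and 57883866 stromal and 5322983 and 32355904 mesothelial UMIs of the Tom+ and Tom- library. The mesothelial label fitted 10 other markers such as Gpm6a and Muc16, which summed to 3977 and 4092 CPM in mesothelial and 242 and 371 CPM in stromal cells. Wt1 made up 170 and 263 CPM of these stromal sums. The 10 stromal markers were not absent from mesothelial cells, where they summed to 14130 and 15780 CPM, against 31560 and 32820 CPM in stromal cells. Dcn alone was at 9987 and 11320 CPM in mesothelial cells. The stromal class is defined by what it lacks, and it took in 269 cells led by immunoglobulin genes such as Ighm and 27 led by mast cell genes such as Mcpt4. Its 10 immune markers summed to 59930 CPM in the Tom+ and 14480 CPM in the Tom- library. In mesothelial cells the same markers summed to 997 CPM for Tom+ and 241 CPM for Tom-. Igkc was at 490 and 147 CPM there and Lyz2 at 275 and 10.8 CPM, so the 2 mesothelial sets differed in immune RNA. The libraries shared 2224 barcodes, and 506 kept Tom+ and 284 kept Tom- cells carried a barcode that the other library also listed. The reporter RNA followed the sort, tdTomato reaching 211 CPM in stromal and 780.2 CPM in mesothelial cells of the Tom+ library against 13.1 and 8.25 CPM in those of the Tom- library. It was uneven among Tom+ stromal cells, since 3704 of 10772 UMIs lay in the immunoglobulin-led cells, and after thinning to 7563 UMIs a tdTomato UMI was found in 20.7% of Tom+ and 9.17% of Tom- stromal cells.

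Of the 8 genes, Chchd10 differed most between the sorts, and it did so in stromal cells. Tom+ stromal cells held it at 84.1 CPM (81.6 to 86.7, on 4299 UMIs) and Tom- stromal cells at 24.1 CPM (22.8 to 25.4, on 1394 UMIs). The log2 ratio of Tom+ over Tom- was 1.80 (1.72 to 1.89), or 3.49-fold, at percentile 99.7 of all genes whose mean reached 5 CPM. Mesothelial cells of the 2 libraries stood close together, at 48.8 CPM (43.1 to 55.2, on 260 UMIs) for Tom+ and 49.5 CPM (47.1 to 52.0, on 1602 UMIs) for Tom-, with a log2 ratio of -0.020 (-0.21 to 0.17). The mesothelial level therefore lay between the stromal levels of the 2 sorts. The log2 ratio of mesothelial over stromal cells was -0.78 (-0.97 to -0.60) in the Tom+ and 1.04 (0.94 to 1.14) in the Tom- library.

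The Chchd10 UMIs of stromal cells sat in a minority of cells in both libraries. At least 1 UMI was found in 33.1% of Tom+ and 13.3% of Tom- stromal cells. Tom+ stromal cells held more UMIs, with a median of 14235 per cell against 11270, so each cell was also thinned to 7563 UMIs at random and shallower cells were left out. This left 2992 of 3263 Tom+ and 4153 of 4800 Tom- stromal cells, and 247 of 250 and 1788 of 1887 mesothelial cells. The thinned shares with a UMI were 25.0% (23.5 to 26.6) in Tom+ and 10.7% (9.74 to 11.6) in Tom- stromal cells, and 26.3% (20.9 to 32.3) and 26.7% (24.7 to 28.9) in mesothelial cells. No cell class here is known to lack Chchd10, and its lowest thinned shares, 4.09% and 2.16%, were, among stromal clusters with at least 30 cells of each library, those of the Krtdap-led one described further on. Before thinning, cells with at least 5 Chchd10 UMIs made up 8.95% of Tom+ stromal cells and held 67.1% of their Chchd10 UMIs. In Tom- stromal cells these values were 1.19% and 32.6%, and such a fixed limit moves with level and depth. The tenth of stromal cells with the most Chchd10 UMIs held 70.3% of them in the Tom+ and 88.7% in the Tom- library. Such a share rises where fewer cells show a UMI, here 33.1% and 13.3%, so it does not compare the libraries. The highest single cells had 43 and 28 UMIs. Mesothelial cells had more even counts, with 2.80% of Tom+ and 1.80% of Tom- cells at 5 UMIs or more and highest counts of 9 and 12.

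**Figure D1:**
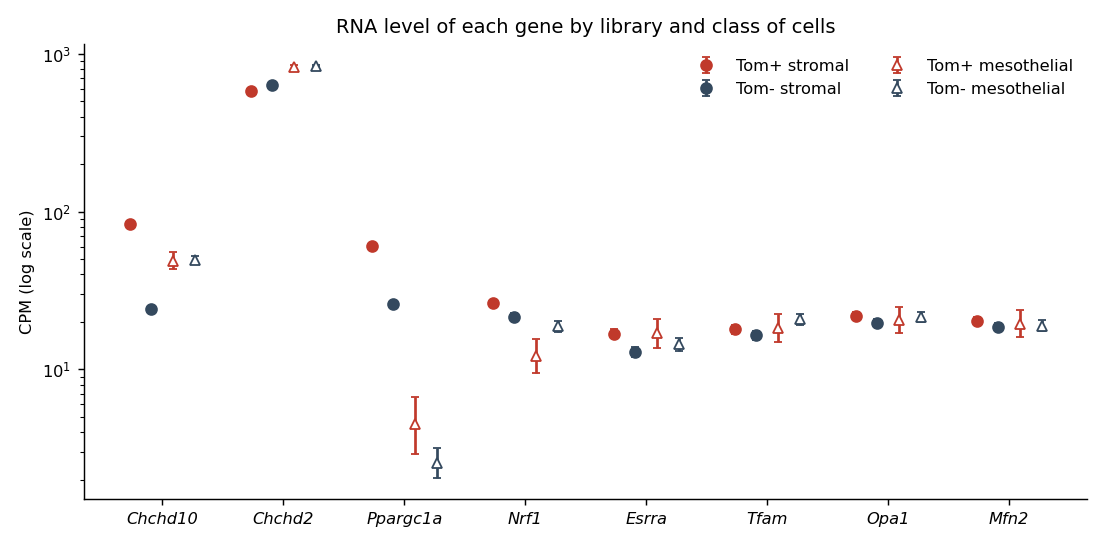
CPM on a log axis of the 8 genes in stromal cells (filled circles) and mesothelial cells (open triangles) of the Tom+ (red) and Tom- (dark) library, with 95% Poisson intervals of the counts. Chchd10 and Ppargc1a are the genes whose stromal levels lie furthest apart between the libraries. The stromal intervals of Chchd2, Nrf1 and Esrra also do not overlap. Ppargc1a is the only one of the 8 whose mesothelial levels fall below 5 CPM.

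Chchd2, the paralog of Chchd10, followed neither the sort nor the level of Chchd10. Tom+ stromal cells held it at 586 CPM (579 to 592) and Tom- stromal cells at 639 CPM (632 to 645), so the log2 ratio was -0.12 (-0.15 to -0.10). Over 9 alternatives of processing this ratio ran from -0.19 to -0.060. Mesothelial cells held Chchd2 at 830.2 CPM (806 to 855) for Tom+ and 842 CPM (832 to 852) for Tom-. The log2 ratio of mesothelial over stromal cells was 0.50 (0.46 to 0.55) in the Tom+ and 0.40 (0.38 to 0.42) in the Tom- library, so it was higher in mesothelial cells in both. Nearly every stromal cell showed it, with thinned shares of 97.6% and 98.7%. CPM here are counts of 3′ ends and are not divided by gene length.

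Ppargc1a shared with Chchd10 the higher level in Tom+ stromal cells. Tom+ stromal cells held 60.7 CPM (58.6 to 62.9, on 3102 UMIs) and Tom- stromal cells 25.9 CPM (24.6 to 27.3, on 1501 UMIs). The log2 ratio was 1.23 (1.14 to 1.32), or 2.34-fold, at percentile 99.4. In mesothelial cells it was close to absent, with 24 UMIs or 4.51 CPM (2.89 to 6.71) in the Tom+ and 83 UMIs or 2.57 CPM (2.04 to 3.18) in the Tom- library. That placed mesothelial cells 13.5-fold and 10.1-fold below the stromal cells of their own library, with log2 ratios of -3.75 (-4.40 to -3.17) and -3.34 (-3.67 to -3.02). The thinned shares of cells with a UMI were 26.5% and 13.4% in stromal cells and 2.43% and 1.23% in mesothelial cells. Between the mesothelial cells of the sorts the log2 ratio was 0.81 (0.093 to 1.48), on a mean under 5 CPM. Only 2 Tom+ mesothelial cells held 62.5% of the Tom+ UMIs, and 3 Tom- cells 31.3%, which the counting interval does not allow for. Unlike Chchd10, Ppargc1a was therefore higher in stromal than in mesothelial cells of both libraries.

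The transcription factors that work with PGC-1α differed much less between the sorts. Nrf1 stood at 26.3 CPM (24.9 to 27.7) among Tom+ stromal cells and at 21.5 CPM (20.4 to 22.8) among Tom- ones, with a log2 ratio of 0.29 (0.17 to 0.40). Esrra stood at 16.9 CPM (15.8 to 18.0) against 12.9 CPM (12 to 13.9), with a log2 ratio of 0.39 (0.24 to 0.53). Both intervals lay above 0, and the ratios were at percentiles 79.5 and 87.9 of all genes. In mesothelial cells Nrf1 turned the other way, with 12.2 CPM (9.42 to 15.6, on 65 UMIs) for Tom+ against 18.8 CPM (17.3 to 20.3, on 607 UMIs) for Tom-, and a log2 ratio of -0.62 (-1.01 to -0.25). Esrra had 17.1 CPM (13.8 to 21.0) against 14.5 CPM (13.2 to 15.8) there, and its ratio of 0.24 had an interval that held 0 (-0.10 to 0.57). The mesothelial over stromal log2 ratio of Nrf1 was -1.11 (-1.49 to -0.75) in the Tom+ and -0.20 (-0.34 to -0.057) in the Tom- library.

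Opa1 and Mfn2 were near the same level in all 4 sets of cells, and Tfam nearly so. In the Tom- library Tfam was higher in mesothelial than in stromal cells, with a log2 ratio of 0.33 (0.19 to 0.48). For Tfam, stromal levels were 18.0 CPM (16.8 to 19.2) for Tom+ against 16.5 CPM (15.4 to 17.6) for Tom-, and mesothelial levels 18.4 CPM (14.9 to 22.4) against 20.7 CPM (19.2 to 22.4). Opa1 had 21.8 CPM (20.6 to 23.1) against 19.6 CPM (18.4 to 20.8) in stromal, and 20.7 CPM (17.0 to 24.9) against 21.4 CPM (19.9 to 23.1) in mesothelial cells. Mfn2 had 20.2 CPM (19.0 to 21.5) against 18.5 CPM (17.4 to 19.6) in stromal, and 19.5 CPM (16.0 to 23.7) against 18.9 CPM (17.4 to 20.5) in mesothelial cells. Their stromal log2 ratios of Tom+ over Tom- were 0.13 (-0.0065 to 0.26), 0.16 (0.036 to 0.28) and 0.13 (0.0029 to 0.25), against a median of 0.071 over all genes. Within a class, the intervals of Tfam, Opa1 and Mfn2 overlapped between the libraries in mesothelial cells. The paper also compared Nrf1 and Tfam by qPCR, a different measure, in sorted Tom+ and Tom- progenitors of old mice. It cited that comparison, which also held respiratory genes such as Cox3 and Cycs, for genes that were higher in the Tom+ cells. From its single-cell data the paper further reported mitochondrial activation among the terms enriched in genes higher in Tom+ progenitors. That reading of gene sets is a different measure from the single genes given here.

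Set against all genes of at least 5 CPM on average, 2 of the 8 genes, Chchd10 and Ppargc1a, were higher in Tom+ stromal cells by 0.5 or more on the log2 scale, and 0 were lower. Among all 9778 genes, 6.39% were higher and 4.26% lower by that much, and since measured levels had a part in the choice of the 8, nothing is read from this count. In mesothelial cells, 0 of the 7 genes above 5 CPM were higher (3.03% of 10014 genes) and 1, Nrf1, was lower (1.78%). Between classes of the Tom+ library, 1 gene, Chchd2, was higher in mesothelial cells (26.0% of 10240 genes) and 3, Chchd10, Ppargc1a and Nrf1, were lower (18.6%). Chchd2 passed the limit by a small margin, and in 6 of 8 alternatives it fell short, at 0.40 with median-of-ratios size factors, which left 3 genes in place of 4. In the Tom- library 1 gene, Chchd10, was higher (24.5% of 10019 genes) and 1, Ppargc1a, was lower (15.7%).

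**Figure D2:**
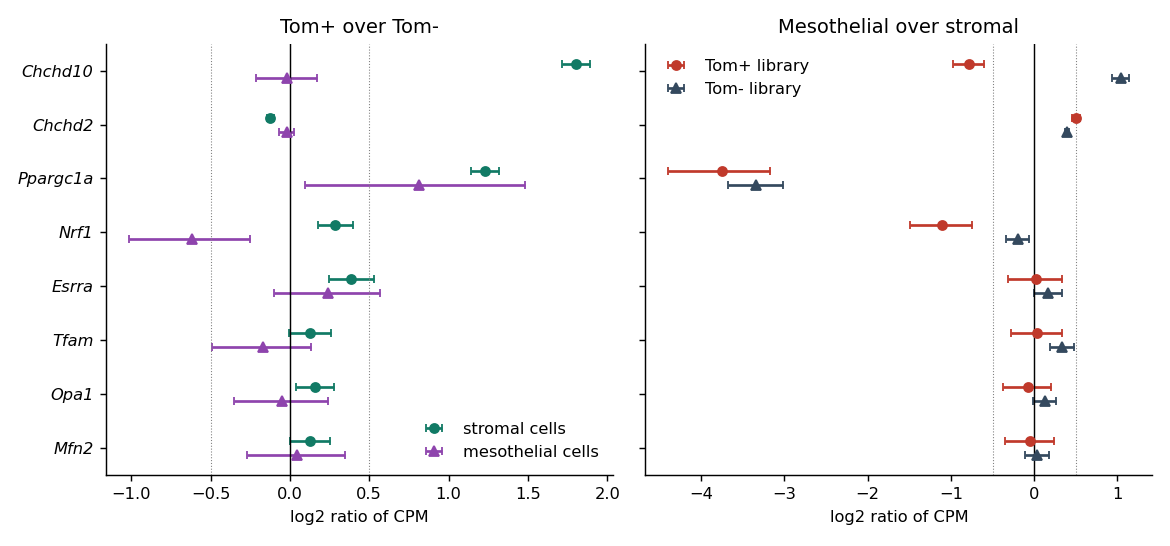
Log2 ratios of CPM for the 8 genes with 95% counting intervals, on the left Tom+ over Tom- in stromal (circles) and mesothelial cells (triangles), on the right mesothelial over stromal cells in the Tom+ (circles) and Tom- library (triangles). Dotted lines mark 0.5 in each direction. Chchd10 lies at 1.80 and -0.020 on the left and on opposite sides of 0 on the right, at -0.78 and 1.04.

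To see which stromal cells carried these RNAs, stromal cells of both libraries were clustered without the 8 genes, which gave 12 clusters, 10 of them with at least 30 cells of each library. The clusters are called by their leading genes and cells of 1 library within them share that library. Chchd10 was higher in Tom+ than in Tom- cells in 10 of the 10 clusters, with log2 ratios from 0.33 to 1.95 and an interval above 0 in 9. The highest level in both libraries was in the cluster led by Edn1, Smpd3 and Sytl2, with 123 CPM (118 to 129) in its Tom+ and 50.1 CPM (44.0 to 57.0) in its Tom- cells. This cluster was 71.9% Tom+ cells, and tdTomato there was at 73.1 CPM for Tom+ against 12.7 CPM for Tom-, with thinned shares of 13.6% and 10.6%. The clusters led by Fbxl18 and Arc (102 CPM, 90.5 to 113), Gsc and Aspn (87.9 CPM, 81.8 to 94.3) and Ptgds and Pi15 (83.5 CPM, 76.2 to 91.3) followed in the Tom+ library, and among these 3 the intervals of neighbours in this order overlapped. In Tom- cells the same clusters were at 27.3, 22.8 and 23.8 CPM, with overlapping intervals. The lowest Tom+ levels were those of the clusters led by Vdr and Adamts9 (27.3 CPM, 20.6 to 35.5), Krtdap and Dact2 (13.3 CPM, 9.75 to 17.6) and Ccl21a and Calca (13.1 CPM, 4.80 to 28.5). Their Tom- levels were 8.78, 3.69 and 10.4 CPM, and the ratio of the last rested on 6 Tom+ UMIs, with an interval of -1.25 to 1.66. The immunoglobulin-led cluster held 72.4 CPM in its Tom+ and 36.2 CPM in its Tom- cells, with a median of 30952 UMIs per cell. Without it and the clusters led by Calca and Mcpt4, the stromal log2 ratio of Chchd10 was 1.84.

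Ppargc1a was also higher in Tom+ cells in 10 of the 10 clusters, with log2 ratios from 0.26 to 2.18 and an interval above 0 in 8, but it peaked elsewhere. The cluster led by Ptgds and Pi15 was highest, with 139.7 CPM (130.2 to 149.7) in its Tom+ and 67.2 CPM (57.3 to 78.2) in its Tom- cells. The Car3 and G0s2 cluster followed with 101 CPM (91.3 to 112) against 48.9 CPM (44.5 to 53.6), and the Fbxl18 and Arc cluster with 90.3 CPM (80.0 to 102) against 28.5 CPM (24.8 to 32.7). In the Edn1-led cluster, where Chchd10 was highest, Ppargc1a had 59.4 CPM (55.5 to 63.6) against 27.5 CPM (23.0 to 32.7). In the Krtdap-led cluster it was at 1.41 and 1.17 CPM, on 5 and 7 UMIs. Both genes were thus low in the Krtdap-led cells, which also led with Pi16. Dpp4 was among the leading genes of the Edn1-led cluster, where Chchd10 was highest. No cell type is read from either gene.

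**Figure D3:**
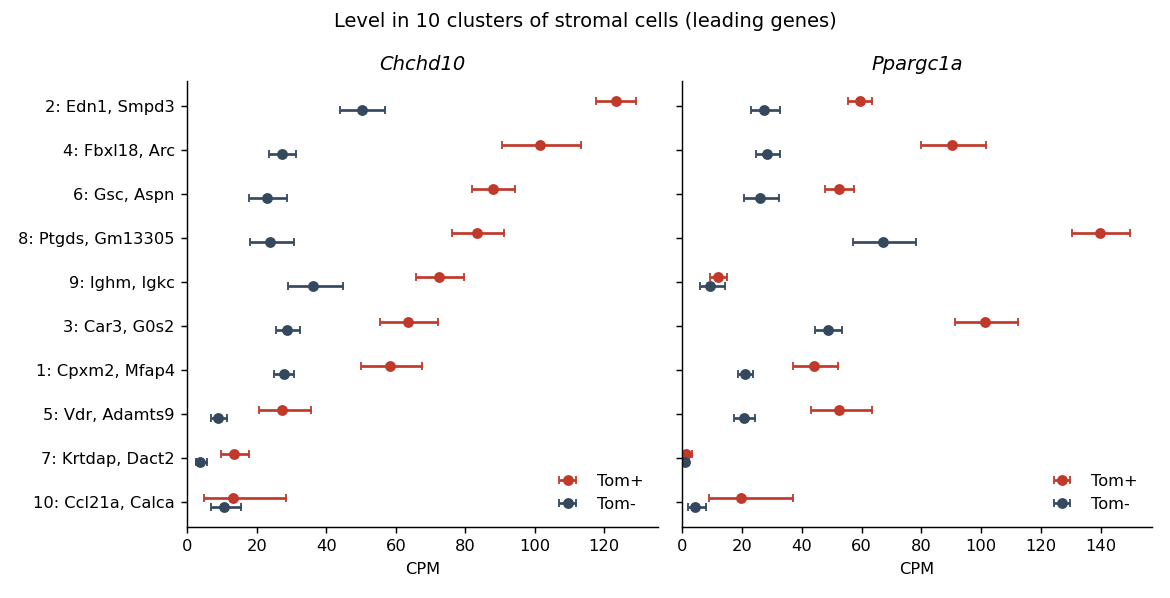
CPM of Chchd10 (left) and Ppargc1a (right) in the 10 stromal clusters with at least 30 cells of each library, labelled by number and leading genes and ordered by the Tom+ level of Chchd10, for Tom+ (red) and Tom- (dark) cells with 95% Poisson intervals. Tom+ values lie to the right of Tom- values for every cluster in both panels, and the Edn1-led cluster is highest for Chchd10 while the Ptgds-led cluster is highest for Ppargc1a.

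The other genes were higher in Tom+ cells less uniformly over the clusters. Chchd2 was higher in Tom+ cells in 2 of 10 clusters and lower beyond its interval in 4, with log2 ratios from -0.41 to 0.10. Nrf1 was higher in 8 clusters, with an interval above 0 in 2, and lower in the immunoglobulin-led one (-0.81, interval -1.35 to -0.25). Esrra was higher in 8 clusters, with an interval above 0 in 2, the clusters led by Cpxm2 (0.80, interval 0.27 to 1.31) and by immunoglobulin genes (1.503, interval 0.27 to 3.02, on 44 and 6 UMIs). Tfam, Opa1 and Mfn2 were higher in 7, 8 and 7 clusters, none with an interval apart from 0. Across the 10 clusters, the order of Ppargc1a followed that of Chchd10 with a Spearman coefficient of 0.55 in the Tom+ and 0.47 in the Tom- library. Esrra (0.53) and Mfn2 (0.52) came close to it in the Tom+ library and were at -0.091 and -0.0061 in the Tom- library, all over points that share a library and its depth.

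Cell by cell, Ppargc1a was higher in stromal cells with more Chchd10, and among the other 6 genes no ratio came near it in both libraries. Thinned Tom+ stromal cells with 0 Chchd10 UMIs (2243 cells), 1 (376) and 2 or more (373) held Ppargc1a at 51.5 (48.1 to 55.0), 78.1 (68.1 to 89.0) and 128 CPM (115 to 142). The corresponding Tom- cells (3710, 296 and 147) held it at 24.5 (22.6 to 26.4), 41.5 (33.5 to 50.9) and 72.9 CPM (57.9 to 90.6). Between the outer sets the log2 ratio was 1.31 (1.13 to 1.49) in the Tom+ and 1.58 (1.23 to 1.91) in the Tom- library. A Ppargc1a UMI was found in 22.0%, 33.0% and 47.2% of the 3 sets of Tom+ cells, and in 11.9%, 22.0% and 32.0% of Tom- cells. UMIs of both genes were found in 10.0% of Tom+ and 2.70% of Tom- stromal cells. These shares rise with the share of cells that show either gene, so they do not compare the link of the genes between the libraries. Chchd2 went from 586 to 627 CPM in Tom+ cells, with a log2 ratio of 0.097 (0.023 to 0.17), and the ratios of Nrf1, Esrra, Tfam, Opa1 and Mfn2 lay from -0.097 to 0.32 with intervals that held 0. In Tom- cells those of Chchd2, Esrra, Tfam, Opa1 and Mfn2 lay from 0.040 to 0.44 with intervals that held 0, and Nrf1 was at -0.76 (-1.64 to -0.0035).

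In mesothelial cells no such order of Ppargc1a was detectable at this depth. In Tom+ mesothelial cells it was at 3.63, 0 and 14.7 CPM over the 3 sets, on 5, 0 and 2 UMIs. In Tom- mesothelial cells it was at 2.42, 1.45 and 1.16 CPM on 24, 4 and 1 UMIs. Chchd2 was at 849, 852 and 829 CPM in the sets of Tom- cells.

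**Figure D4:**
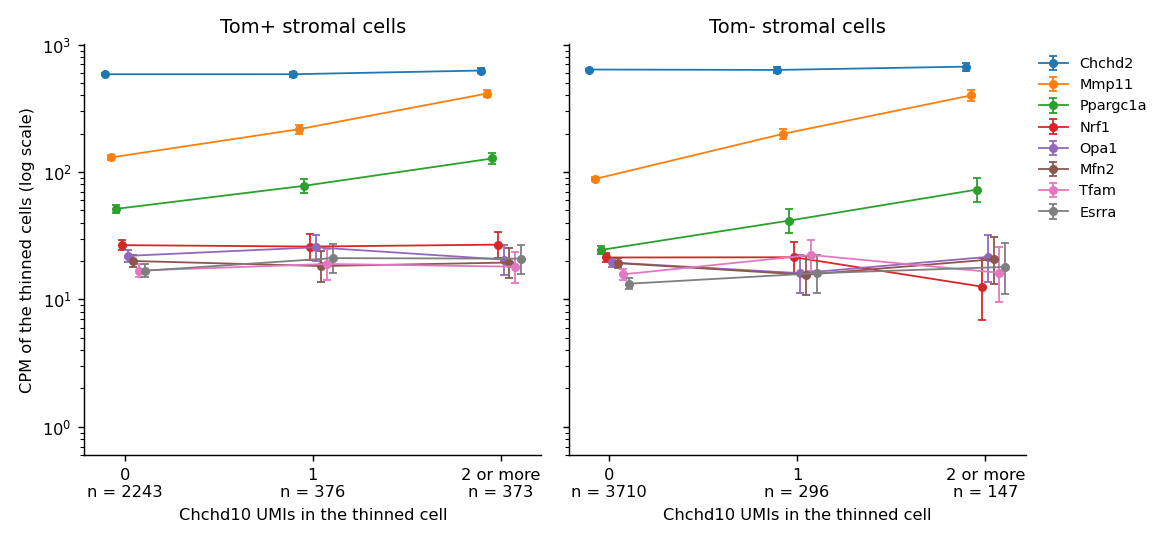
CPM on a log axis of 7 of the genes and of Mmp11 in Tom+ (left) and Tom- (right) stromal cells thinned to 7563 UMIs, by the number of Chchd10 UMIs in the cell, with 95% Poisson intervals and the number of cells under each set. Mmp11 and Ppargc1a climb from left to right in both panels, Ppargc1a from 51.5 to 128 CPM and from 24.5 to 72.9 CPM, while in Tom- cells Nrf1 runs the other way, on 14 UMIs in the last set.

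The 10 genes whose cell by cell pattern was most like that of Chchd10 included none of the other 7. Likeness was Pearson's r of log(1 + UMIs) over thinned stromal cells, taken as the lower value of the 2 libraries, among 9486 genes with at least 5 CPM in both. The median r was near 0 in both libraries, and 99% of genes were below 0.099 in the Tom+ and 0.068 in the Tom- library. Mmp11, a secreted metalloproteinase, ranked first (0.31 in Tom+, 0.27 in Tom-), before the growth factor gene Mdk (0.31 and 0.20), Aebp1 (0.20 and 0.19) and the cytokine gene Mif (0.23 and 0.18). Marcksl1, Selenop, Mfap2, Mmp2, Mmp14 and Apoe completed the first 10. Ppargc1a ranked 13 (0.22 and 0.13). The ranks of Esrra, Tfam and Chchd2 were 609, 1032 and 1357, and Opa1, Mfn2 and Nrf1 ranked 2953, 3491 and 6648, all with r under 0.04. These r are low and the points share library and depth, so they are given as a description.

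Within clusters, the r of Ppargc1a with Chchd10 was above 0 in 8 of 10 clusters of Tom+ and 7 of 10 of Tom- cells, from -0.097 to 0.26 and from -0.025 to 0.27. The r of Mmp11 was above 0 in 9 and 10 of 10 clusters. In mesothelial cells the r of Mmp11 was -0.10 over 247 Tom+ and -0.0046 over 1788 Tom- cells. Its level in cells with 0 and with 2 or more Chchd10 UMIs was 11.6 and 7.35 CPM (16 and 1 UMIs) in Tom+ and 11.0 and 11.6 CPM in Tom- mesothelial cells. In stromal cells Mmp11 went from 130.2 to 414 CPM in the Tom+ and from 88.3 to 400.3 CPM in the Tom- library between the same sets, log2 ratios of 1.67 (1.57 to 1.77) and 2.18 (2.03 to 2.33).

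Mmp11 is the neighbour of Chchd10 in the genome. In GRCm38 (mm10), GENCODE places Chchd10 on chromosome 10 from 75933130 to 75937747 on the plus strand and Mmp11 from 75923222 to 75936496 on the minus strand, so the gene models overlap on opposite strands. How reads of overlapping genes were assigned by strand was not given in the sources used here, and the part this has in their likeness was not tested. The RefSeq starts of the 2 genes lie 628 bases apart and point away from each other. The 250 bases before each start are printed because these neighbours, and Ppargc1a with them, were counted in the same stromal cells. They are written 5′ to 3′ on the strand of the gene, from RefSeq on GRCm38.p6, and capitals mark CG dinucleotides. The windows are chr10:75932880-75933129 for Chchd10, chr10:75932503-75932752 for Mmp11 and chr5:51567726-51567975, minus strand, for Ppargc1a.
Chchd10: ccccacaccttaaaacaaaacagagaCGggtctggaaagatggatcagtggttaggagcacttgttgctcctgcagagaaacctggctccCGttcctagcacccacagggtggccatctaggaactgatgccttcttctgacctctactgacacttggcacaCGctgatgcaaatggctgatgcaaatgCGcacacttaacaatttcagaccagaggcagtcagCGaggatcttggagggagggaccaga
Mmp11: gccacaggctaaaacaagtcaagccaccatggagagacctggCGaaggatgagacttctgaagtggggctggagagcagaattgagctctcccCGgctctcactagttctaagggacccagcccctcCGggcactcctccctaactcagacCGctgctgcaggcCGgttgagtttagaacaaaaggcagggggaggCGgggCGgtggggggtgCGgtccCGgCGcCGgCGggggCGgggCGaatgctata
Ppargc1a: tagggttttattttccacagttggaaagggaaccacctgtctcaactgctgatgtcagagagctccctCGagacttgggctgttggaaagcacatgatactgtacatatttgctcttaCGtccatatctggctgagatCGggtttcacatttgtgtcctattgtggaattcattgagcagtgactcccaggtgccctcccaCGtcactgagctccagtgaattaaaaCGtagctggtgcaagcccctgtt
The Chchd10 and Ppargc1a windows hold 5 CG each and the Mmp11 window 14, against a median of 6 over 32851 RefSeq promoters of that length. Their GC contents were 52.4%, 48.0% and 63.2%, and the median was 52.4%.

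Motifs of factors known from mitochondrial genes were searched on both strands of 300-base windows that add 50 bases after the start. The NRF1 core CGCATGCG was in 1.87% of all promoters, the ERR half-site AAGGTCA in 4.72% and the ETS site CCGGAAG in 8.86%. The windows of Chchd10, Mmp11 and Ppargc1a held none of the 3. Of the 7 genes with a RefSeq window (Chchd2 had no entry), Opa1 held the NRF1 core, which begins 58 bases before its start, and Tfam the ETS site, 47 bases before its start, both in capitals here.
Opa1: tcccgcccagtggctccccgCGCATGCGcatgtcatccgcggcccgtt
Tfam: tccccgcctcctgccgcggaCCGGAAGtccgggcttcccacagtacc
A match of letters is not evidence of binding.

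Some further genes of the same stretch of chromosome 10 were also alike to Chchd10 over cells. Within 500 kb of Chchd10, a window set after the ranks were seen, 32 further genes are annotated and 16 of them passed 5 CPM in both libraries. Of these, 2 were among the first 10 genes (Mmp11 and Mif, the latter 72890 bases away) and Ggt5, 315930 bases away, ranked 12. Gstt1 and Gstt2 ranked 69 and 75 and Gm867, which overlaps the 3′ end of Chchd10, ranked 54. Smarcb1, between Mif and Mmp11, was not alike (rank 3477), nor were Cabin1 and Susd2 (ranks 3854 and 5844). Neighbours therefore differed among themselves, with the alike ones mixed among the others.

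**Figure D5:**
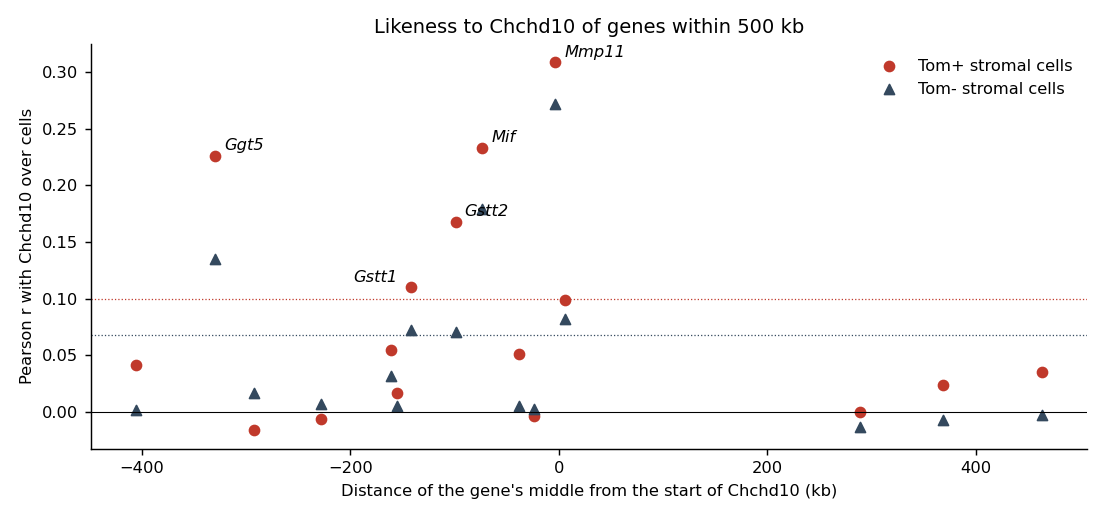
Pearson's r with Chchd10 over thinned stromal cells for the 16 genes within 500 kb that passed 5 CPM, against the distance of the gene's middle from the start of Chchd10, in Tom+ (circles) and Tom- (triangles) cells. Dotted lines mark the r that 99% of all genes stay below in each library, and 5 genes, Mmp11, Mif, Ggt5, Gstt1 and Gstt2, stand above the line of their library in both.

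Other genes of mitochondrial function were read from 6 lists, which were drawn up with earlier results of these libraries known. The list of nuclear factors of biogenesis also held AMPK subunits, sirtuins and the repressors Nrip1 and Ncor1. Of its 15 measured genes, 12 were higher in Tom+ stromal cells, with a median log2 ratio of 0.17, Nrip1 (0.43) and Ncor1 (0.22) among them. Of all genes 60.5% were higher, with a median of 0.071, and 50.6% with the size factors used next. Prkaa2, a subunit of the energy sensor AMPK, was highest (0.62) and the only one past 0.5, and Nfe2l2, the antioxidant regulator NRF2, lowest (-0.47). Scaled by median-of-ratios size factors, which lowers all ratios by 0.067, 10 of 15 were higher. For mitochondrial DNA maintenance and expression, 6 of 10 were higher (median 0.045), from Mgme1 (-0.21) to Lrpprc (0.38), and 4 of 10 with size factors. Fusion and fission genes had 9 of 15 higher (median 0.026), from Stoml2 (-0.29) to Mief1 (0.65), and 5 of 15 with size factors. The list of the MICOS complex and the CHCH family, which also held C1qbp, had 13 of 23 higher (median 0.014). Its ratios ran from Chchd7 (-0.43) to Dnajc11 (0.28), and 7 of 23 were higher with size factors. Import genes had 10 of 22 higher (median -0.023), from Timm21 (-0.17) to Timm10 (0.28), and 6 of 22 with size factors. Of the 13 genes of the mitochondrial genome, 11 were higher (median 0.13), from mt-Cytb (-0.17) to mt-Nd6 (0.55), and 10 with size factors, but cells were filtered on these RNAs. The medians of the 6 lists lay from -0.023 to 0.17, against a median of 0.22 over the 8 genes. The ratios of Chchd10 and Ppargc1a lay above these medians, but a single gene and a list median are unlike measures.

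Between classes, 4 of the 6 lists leaned, like Chchd2, to the mesothelial side, as did 57.2% of all genes in the Tom+ and 61.1% in the Tom- library (medians 0.11 and 0.14). Of the MICOS and CHCH list, 20 and 21 of 23 genes were higher in mesothelial cells, with medians of 0.40 and 0.32, and 18 and 19 with size factors. Of the mitochondrial DNA list, 8 of 11 and 8 of 10 were higher (medians 0.30 and 0.27), of the fusion and fission list 10 and 13 of 15 (0.27 and 0.20), and of the import list 15 and 16 of 22 (0.20 and 0.16). With size factors these counts were 7 of 11 and 7 of 10, 9 and 10 of 15, and 15 and 12 of 22. Of all genes, 50.75% and 51.09% were then higher. The import list of the Tom- library was near that share, with a median of 0.040. Chchd4, the import receptor of CHCH proteins, was highest of the MICOS and CHCH list in both, at 1.20 in the Tom- library. The genes of the mitochondrial genome were higher in mesothelial cells for 0 and 2 of 13, with medians of -0.30 and -0.23. Among nuclear factors, Nrip1, a repressor that binds nuclear receptors, was lowest at -2.22 and -1.82, on the same side as Ppargc1a.

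Within the Tom+ library, Chchd10 was not higher in stromal cells with a tdTomato UMI. All these cells were sorted as Tom+, but only 20.7% showed such a UMI after thinning, against 9.17% of Tom- stromal cells. A cell without a tdTomato UMI is therefore not a cell without the reporter, and the split cannot sort cells by reporter. Thinned Tom+ stromal cells with a tdTomato UMI (619 of 2992 cells) held Chchd10 at 70.1 CPM (62.7 to 78.1), and those without at 92.7 CPM (88.3 to 97.3). These cells came from the clusters in unequal parts, with a tdTomato UMI in 82.1% of the immunoglobulin-led and 13.6% of the Edn1-led Tom+ cells. Within clusters, Chchd10 was higher in Tom+ cells with a tdTomato UMI in 3 of 10, and in the Edn1-led one the levels were 116.6 CPM with and 130.7 CPM without. In the Tom- library these levels were 22.9 CPM (17.7 to 29.1; 381 cells) and 25.6 CPM (23.8 to 27.6). Ppargc1a had 52.1 CPM (45.8 to 59.1) with and 67.5 CPM (63.8 to 71.4) without tdTomato in Tom+ cells. In Tom- cells it had 33.7 CPM (27.3 to 41.1) with and 26.8 CPM (24.9 to 28.7) without. Within clusters, Ppargc1a was higher in cells with a tdTomato UMI in 5 of 10 in each library, so the pooled order did not hold throughout. Cdkn2a, the gene of p16, had 4.66 CPM (4.08 to 5.29) among Tom+ and 5.79 CPM (5.18 to 6.44) among Tom- stromal cells. The Tom- value was the higher one, and the slight overlap of the intervals does not show that the levels were equal. The Tom+ value was under 5 CPM, and after thinning a Cdkn2a UMI was found in 2.31% of Tom+ and 2.31% of Tom- stromal cells. No order of the sorts is therefore read from these levels. Mesothelial cells held Cdkn2a at 12.4 CPM (9.59 to 15.8) for Tom+ against 8.47 CPM (7.5 to 9.53) for Tom-. By qPCR with primers named for p16Ink4a, the paper reported more p16 RNA in sorted Tom+ than in Tom- progenitors. That is a different measure from UMIs counted over the whole gene. The difference between libraries in Chchd10 was present in cells with and without a tdTomato UMI, and nothing about the reporter is read from this.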

How the data were processed

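The authors deposited, for each library, UMI counts per gene and barcode as whole numbers, made from 10x Genomics 3′ v3.1 libraries with Cell Ranger 3.0.2 and mm10 per the labels. The annotation and strand settings were not given in the sources used here. The 8 genes, the lists and the class limits were chosen with earlier results of these data known. Cells were filtered, classed and summed per library and class as stated above, and CPM, exact Poisson intervals, exact Clopper-Pearson intervals of shares and conditional intervals of log2 ratios were computed in Python 3.11.15 with scipy 1.17.1. Ratios were set against all genes averaging 5 CPM or more. Stromal cells were clustered without the 8 genes by the Leiden method (scanpy 1.11.5, 2000 variable genes, 30 components, 20 neighbours, resolution 0.6). Leading genes had at least 50 CPM and the highest ratio to the other clusters. No doublet caller was run. All 8 genes, the 10 genes most like Chchd10, and the highest and lowest gene of each list were named; neighbours on chromosome 10 and cluster values were chosen after they were seen. The code was tested on simulated data. Coordinates are from GENCODE on GRCm38. Alternatives were another scaling, cell filter, class limit, cell weight, cluster weight, fold and depth, and, chosen after seeing the data, leaving out shared barcodes or clusters.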

Additional observations from a re-analysis of the deposited data

Results flagged for a closer look

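With 1 library per condition, these differences in sign were not tested. Chchd10 was lower in mesothelial than in stromal cells of the Tom+ library (log2 ratio -0.78) and higher in the Tom- library (1.04). Its Tom+ over Tom- ratio was 1.80 in stromal cells. In mesothelial cells that ratio was -0.020 with an interval that held 0 (-0.21 to 0.17), so no direction is read there. Nrf1 was higher in Tom+ stromal (0.29) and lower in Tom+ mesothelial cells (-0.62). For Tfam (0.13 and -0.17) and Opa1 (0.16 and -0.052) the same pair of ratios also differed in sign, as did the mesothelial over stromal ratios of Opa1 (-0.078 in Tom+, 0.13 in Tom-) and Mfn2 (-0.049 and 0.032), and in each of these pairs at least 1 interval held 0.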

How the results depend on the processing

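The stromal log2 ratio of Chchd10 (1.80) was 1.43 with each cluster weighted equally and 1.64 over all barcodes, and stayed between 1.43 and 1.88 over 9 alternatives. Its mesothelial over stromal ratio was -0.60 instead of -0.78 in the Tom+ library over all barcodes, and 0.92 instead of 1.04 in the Tom- library with size factors. The cause was not tested. The stromal ratio of Ppargc1a stayed between 1.07 and 1.32. Of 328 values recomputed, 0 values past 0.5 changed sign and 20 moved beyond their counting interval or, for counts, beyond 1.5 times. With cells of shared barcodes left out, a choice made after seeing the data, the stromal ratios of Chchd10 and Ppargc1a were 1.88 and 1.32. The mesothelial ratio of Ppargc1a rested on 24 and 83 UMIs and ranged from 0.22 to 1.08. No paired analysis was possible because each condition had 1 library, so no replicate could be left out either.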
